A study of Homo sapiens with 7 samples.

Results

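The Combination of vitamin C and 5-Aza-CdR was set beside the sum of its 2 single agents in 4 libraries of double-stranded RNA, of the 7 in the series. These are all 4 libraries of one deposited workbook, called here set 2, and each treatment has 1 library in it. The cells were HCT116, a human colon carcinoma line, in 4 treatments named Combination, Vc, 5-Aza-CdR and PBS. The labels give one treatment protocol for all samples, in which 5-Aza-CdR was used at 0.3 µM, the medium was changed after 24 h and the cells were kept to day 5. They give no dose for Vc and do not spell out the Combination, and the published account has vitamin C for Vc and both agents for the Combination. RNA was digested with RNase T1 and DNase, captured with the J2 antibody and sequenced from a small-RNA kit. The other 3 libraries, set 1, hold PBS, 5-Aza-CdR and Combination without Vc and enter only the joint fit and the spread between libraries described below. The sources used here do not say whether the libraries came from separate cultures, so every spread between libraries may be technical. The files count only repeats, so the identity of the line could not be checked against marker genes.

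5-Aza-CdR is incorporated into DNA and traps the DNA methyltransferases, so that methylation is lost as cells divide. Vitamin C is a cofactor of the TET enzymes, which oxidise methylated cytosine. Both act on the marks that keep endogenous retroviruses (ERVs) silent, and ERV transcripts made from both strands can pair into double-stranded RNA, the form that J2 binds and that cytosolic sensors of viral RNA recognise. An ERV is counted here either by its long terminal repeat (LTR), which carries the promoter, or by its internal region, whose name ends in -int. LTR12 elements are the LTRs of the HERV9 retroviruses and include many solitary LTRs. In a pull-down, more RNA per cell and a larger share of responding cells cannot be told apart.

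A log2 sum and a linear sum were formed for each of 499 LTR and ERV families. The log2 sum adds the log2 changes of the single agents over PBS, so that the expected level is Vc times 5-Aza-CdR over PBS. The linear sum adds the increments themselves, so that the expected level is Vc plus 5-Aza-CdR minus PBS. Levels are reads per 10000 family reads of the library, which held 32403 family reads for the Combination, 18495 for Vc, 23528 for 5-Aza-CdR and 19450 for PBS. Because each library is scaled to its own total, the linear departures of all families add up to 0, and a family above its sum is balanced by others below. Log2 departures had 0.5 added to each count. With 1 library a treatment there is no test within set 2, and the 95% intervals given cover counting error only. These intervals treat reads as independent counts. Amplified reads with no molecular identifiers cannot be counted as separate molecules, so the intervals may be too narrow even for counting error.

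Over the 143 families with at least 100 reads in the 4 libraries, the Combination lay close to the sums. The median departure from the log2 sum was -0.09, with quartiles of -0.44 and 0.18, and the median ratio to the linear sum was 0.931. The Combination was above both sums in 57 families, below both in 77 and between them in 9. The choice of scale mattered little for most families, since the sums themselves differed by a median of 0.07 on the log2 scale. At 2-fold or more, 4 families (2.8%) stood above the log2 sum and 11 (7.69%) below it, while 13 (9.09%) stood above the linear sum and 9 (6.29%) below it. Scaling by median-of-ratios size factors instead gave 4 above and 5 below the log2 sum, and 9 above and 5 below the linear sum, and moved the median log2 departure to 0.04. Counting intervals excluded 0 on the log2 scale for 8 families above and 19 below. The plot of the Combination against both sums shows most families along the line of equality, with LTR12C far to the right of all others.

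**Figure D1:**
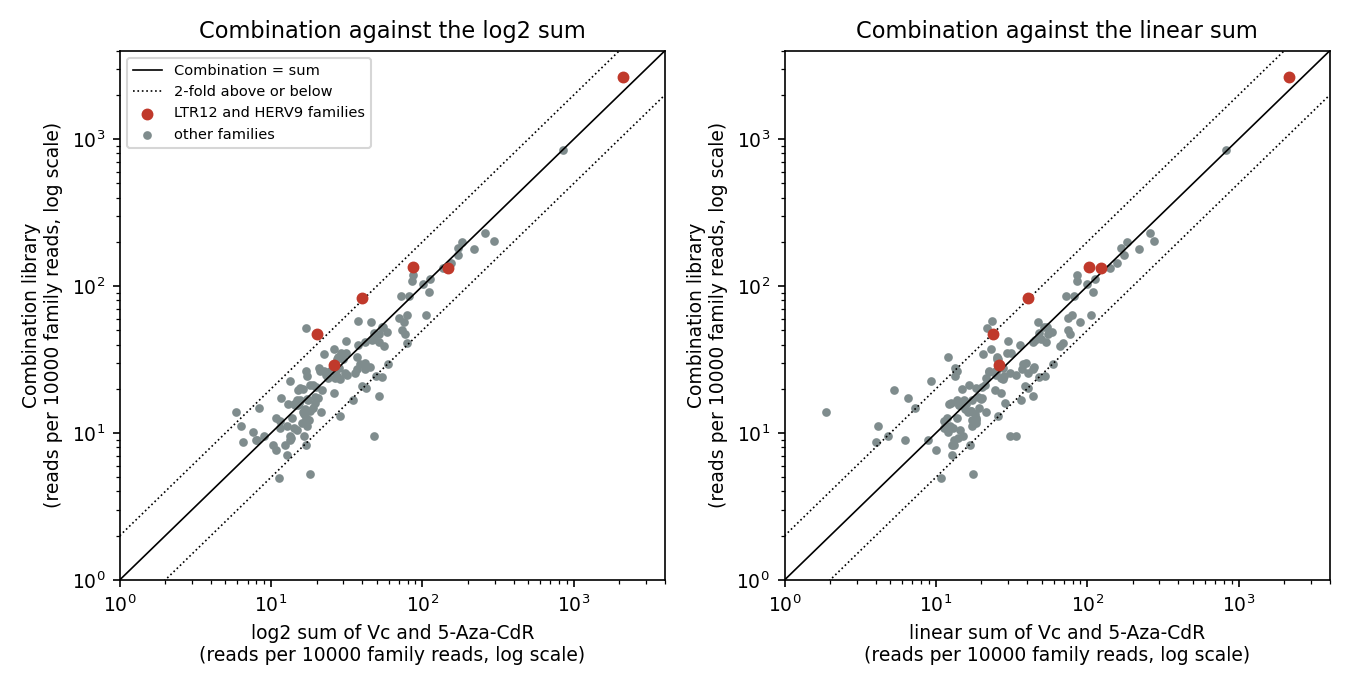
Each point is 1 of the 143 families with at least 100 reads. The Combination (vertical axis) is plotted against the log2 sum (left) and the linear sum (right), in reads per 10000 family reads on log axes. Points on the solid line equal the sum, dotted lines mark 2-fold, and red points are LTR12 and HERV9 families, of which LTR12C lies furthest right at 2671 in the Combination.

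LTR12 and HERV9 elements, pooled over 8 families, were the group with the largest excess of reads over either sum among the 13 groups set apart by family name. The group had 10102 reads in the Combination, against 1025 in Vc, 5933 in 5-Aza-CdR and 1107 in PBS. These made up 31.2% of family reads in the Combination, against 5.54% in Vc, 25.2% in 5-Aza-CdR and 5.69% in PBS. The Combination exceeded the log2 sum by 0.34 (0.21 to 0.48) and the linear sum by 611 reads per 10000 (510 to 711), a ratio of 1.24. Of its 6 families with at least 100 reads, 5 were above the log2 sum, with a median of 0.49 beside -0.09 over all 143 families. Vc and PBS had nearly the same level of the group, so both sums lay near the level of 5-Aza-CdR. Under size factors the excess over the linear sum was larger, at 968 per 10000.

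LTR12C, the family with the most reads in the Combination library, carried most of that excess. It had 2671 reads per 10000 in the Combination, against 425 in Vc, 2180 in 5-Aza-CdR and 438 in PBS. The log2 sum gave 2118 and the linear sum 2168 per 10000, and the Combination exceeded them by 0.33 on the log2 scale (0.19 to 0.48) and by 503 reads per 10000 (411 to 595), a ratio of 1.23. In relative terms the smaller LTR12 families stood further above their sums. LTR12 itself had 269 reads in the Combination, against 23 in Vc, 97 in 5-Aza-CdR and 25 in PBS, a log2 departure of 1.05 (0.18 to 1.93) and a linear ratio of 2.03. The family written LTR12_ in the files had 154 reads in the Combination, against 22 in Vc, 69 in 5-Aza-CdR and 34 in PBS, a log2 departure of 1.23 (0.37 to 2.10) and a linear ratio of 2.00. These were the group's 2 families past 2-fold, on both scales.

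HERV9-int is the internal region that encodes the retroviral proteins. In log2 departure and linear ratio it stood between LTR12C and the families LTR12 and LTR12_, with overlapping log2 intervals. It had 439 reads in the Combination, against 64 in Vc, 270 in 5-Aza-CdR and 90 in PBS, a log2 departure of 0.65 (0.14 to 1.16) and a linear ratio of 1.31. LTR12D, with 430 reads in the Combination, against 106 in Vc, 257 in 5-Aza-CdR and 83 in PBS, lay at its sums, with a log2 departure of -0.14 (-0.61 to 0.33) and a linear ratio of 1.07. One copy held 26.1% of the LTR12D reads, and without it the family stood at 0.28 (-0.25 to 0.81) on the log2 scale and 22.8 per 10000 (2.81 to 42.7) above the linear sum. LTR12E was at 0.17 (-1.03 to 1.38), LTR12B at 0.24 (-2.40 to 2.88) and LTR12F at -0.85 (-2.35 to 0.65), and the reads of these 3 families could not separate an excess from a deficit. The plot of levels sets the group's families beside their sums, and only in LTR12C, LTR12, LTR12_ and HERV9-int did both counting intervals lie above 0.

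**Figure D2:**
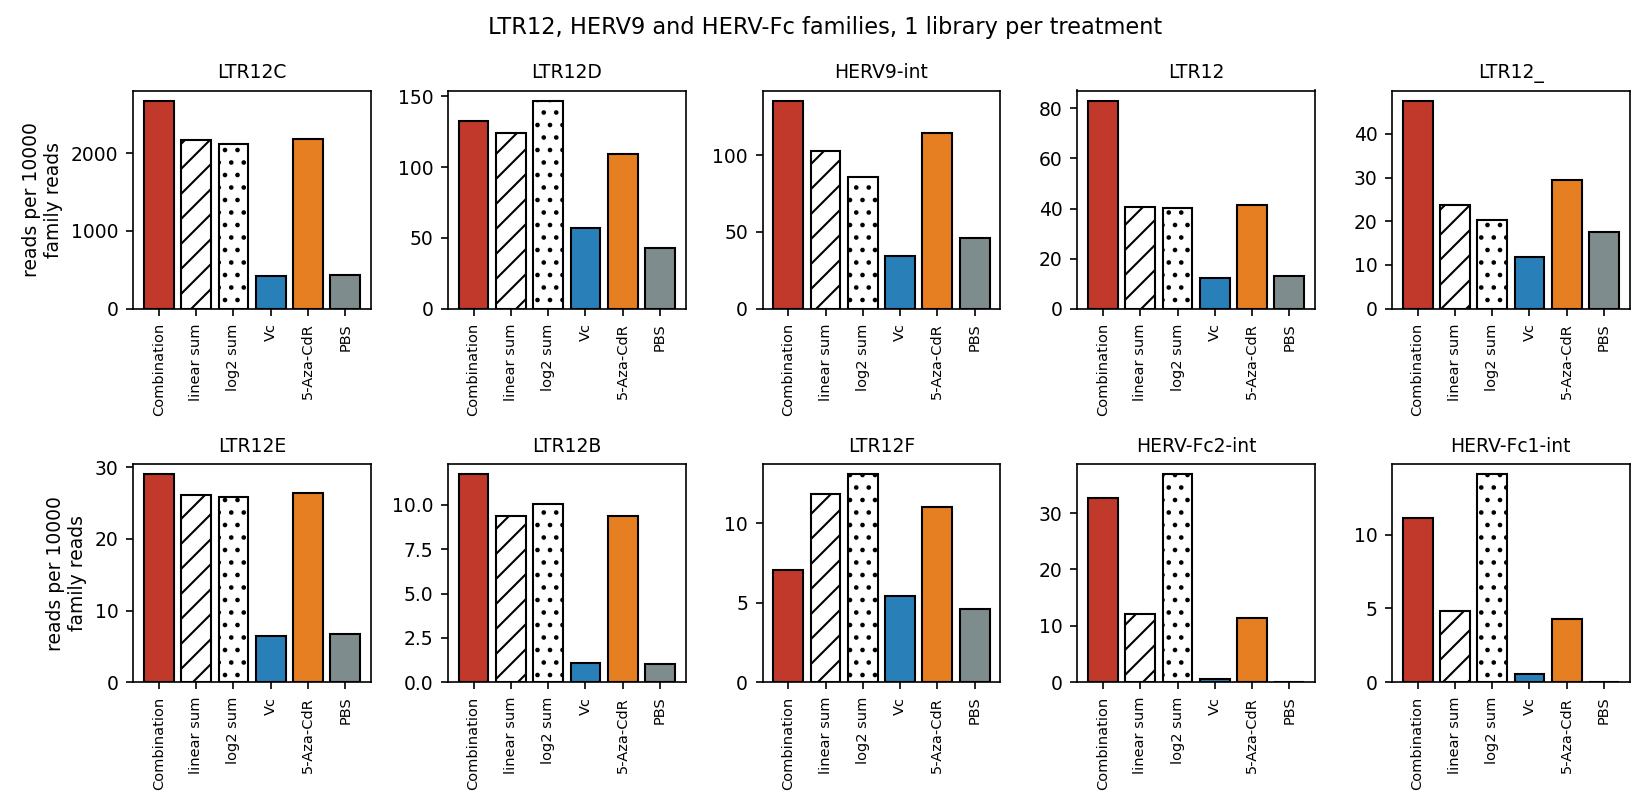
Bars give reads per 10000 family reads of each family in the Combination, beside the linear sum and the log2 sum (hatched), Vc, 5-Aza-CdR and PBS, with 1 library a treatment and a separate axis for each family. The Combination bar stands above both sums in LTR12C, HERV9-int, LTR12, LTR12_, LTR12E and LTR12B, and between the sums in LTR12D and the HERV-Fc internal regions.

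The excess of LTR12C was counted on copies of nearly all chromosomes. The chromosomes share the same 4 libraries and are not replicates of each other. How reads matching several copies were placed is not known, so reads of few copies may be counted on many chromosomes. Of the 23 chromosomes on which LTR12C had at least 100 reads in all, 22 were above the linear sum and 21 above the log2 sum. The counting interval of the linear departure lay above 0 on 14 of them and below 0 on none. Chromosome 4 had the most reads above its linear sum, with 66.5 per 10000 (39.2 to 93.8), and chromosome 13 stood at 1.48 times its linear sum. Chromosome 10 was the exception on the linear scale, at -15.0 per 10000 (-39.7 to 9.79). A single LTR12C copy at chr10:74060187-74061778, on the plus strand, had 114 reads in the Combination, against 133 in Vc, 101 in 5-Aza-CdR and 94 in PBS, and lay 31.3 per 10000 below its linear sum (-50.2 to -12.4). The rest of chromosome 10 had 249 reads in the Combination, against 36 in Vc, 134 in 5-Aza-CdR and 31 in PBS, and stood 16.4 per 10000 above its linear sum (0.365 to 32.4). Without that copy the whole family stood 535 per 10000 above its linear sum, and 0.44 above its log2 sum.

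**Figure D3:**
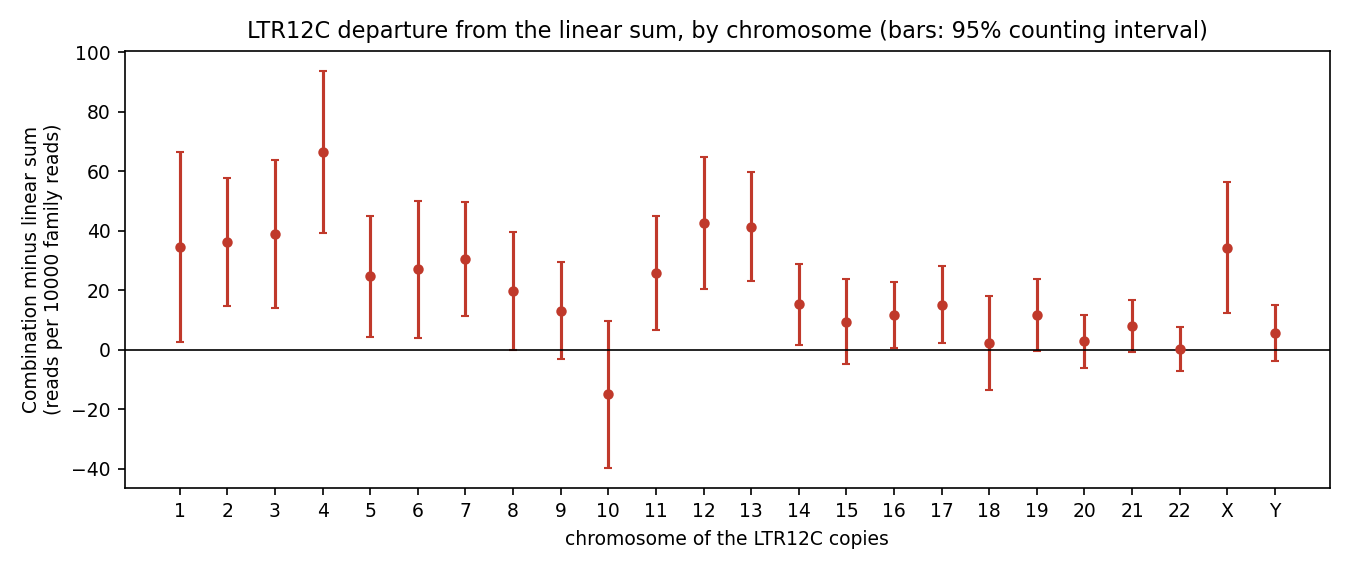
Points give the Combination minus the linear sum for all LTR12C copies of a chromosome, in reads per 10000 family reads, with 95% counting intervals as bars. Chromosome 10, at -15.0, is the one chromosome below 0, and chromosome 4, at 66.5, is the highest.

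Copies with few reads held most of the LTR12C excess, and also most of the family's Combination reads. Of 2656 annotated copies, 1932 had reads in any of the 4 libraries and 69 had at least 30. The 2587 copies under 30 reads lay together 435 per 10000 above the linear sum (356 to 513), a ratio of 1.28, and 0.54 above the log2 sum (0.36 to 0.71). The 69 copies with at least 30 reads added 68.6 per 10000 (20.4 to 117), a ratio of 1.11, and stood at -0.17 on the log2 scale (-0.45 to 0.11). The 10 copies with the most Combination reads held 10.5% of the family's reads in that library and summed to -6.97 per 10000. Without the copy at chr10:74060187-74061778, the other 9 summed to 24.4 per 10000. The other 68 copies with at least 30 reads then stood at 0.02 on the log2 scale (-0.35 to 0.40). On the linear scale these 68 lay 100 per 10000 above their sum, a ratio of 1.18. The excess was found on both strands of the genome annotation, at ratios of 1.20 for plus-strand copies and 1.27 for minus-strand copies. By length, copies over 1400 bases lay 378 per 10000 above the linear sum, those of 1000 to 1400 bases 111 and those of 500 to 1000 bases 11.9, each with an interval above 0. For copies of 500 bases or fewer the departure was 3.06 per 10000 (-9.28 to 15.4), which the counts do not separate from 0. These amounts depend on the reads in each bin, with 6290 in the Combination for the longest copies, then 2120, 115 and 130. On the log2 scale the departures were 0.32, 0.31, 1.02 and 0.53 in the same order. The excess relative to the sum thus did not rise steadily with length. In both bins of 1000 bases or fewer the log2 intervals held 0.

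More LTR12C copies had reads in the Combination than in either single agent. At full depth 1658 copies had at least 1 read in the Combination, against 407 in Vc, 1368 in 5-Aza-CdR and 520 in PBS. Brought down to the 18495 reads of the Vc library, the expected numbers were 1373 in the Combination, 407 in Vc, 1246 in 5-Aza-CdR and 501 in PBS, so the linear sum of copies was 1152. Outside LTR12 and HERV9 the same calculation gave 8004 copies in the Combination, 9901 in Vc, 8730 in 5-Aza-CdR and 10056 in PBS, with a linear sum of 8575. Depth was matched on all family reads, so the Combination still held more LTR12C reads than 5-Aza-CdR. Numbers of copies with reads do not add up as reads do, so these sums do not test additivity. At full depth 442 LTR12C copies had reads in the Combination and none in either single agent, and they held 779 reads, at most 10 in any of them. The reverse, reads in a single agent and none in the Combination, held for 232 LTR12C copies. Over all families 8687 of 14659 copies with Combination reads had none in either single agent, a larger share than the 442 of 1658 of LTR12C.

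HERV-Fc, a small group of proviruses, gave a different answer on each scale, because PBS and Vc had almost no reads. The 6 families had 171 reads in the Combination, against 3 in Vc, 51 in 5-Aza-CdR and 1 in PBS. The pooled Combination exceeded the linear sum by 29.99 reads per 10000 (19.9 to 40.1), a ratio of 2.32, or by 46.5 per 10000 reads outside LTR12 and HERV9, while its log2 departure was -0.02 (-2.82 to 2.77), an interval too wide to place it. HERV-Fc2-int, the one family with at least 100 reads, had 106 reads in the Combination, against 1 in Vc, 27 in 5-Aza-CdR and 0 in PBS, where 0 reads allow a level of up to 1.54 per 10000. It stood 20.7 per 10000 above the linear sum (13.0 to 28.4), a ratio of 2.72. The single read in Vc and the 0.5 added to the PBS count set its log2 sum of 36.9 per 10000, against 32.7 measured in the Combination.

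The HERV-Fc2-int reads came mostly from 1 of its 3 copies. The provirus at chrX:97096856-97104052, on the plus strand, had 93 reads in the Combination, against 0 in Vc, 21 in 5-Aza-CdR and 0 in PBS, and stood at 3.22 times its linear sum. The other 2 copies together had 13 reads in the Combination, against 1 in Vc, 6 in 5-Aza-CdR and 0 in PBS, a ratio of 1.30 with a linear departure of 0.921 per 10000 (-2.25 to 4.09). HERV-Fc1-int, the internal region of the related HERV-Fc1, had 36 reads in the Combination, against 1 in Vc, 10 in 5-Aza-CdR and 0 in PBS, a linear ratio of 2.32 (6.32 per 10000, 1.71 to 10.9). Its copy with the most reads, at chr7:64295616-64300190 on the minus strand, had 21 reads in the Combination, against 1 in Vc, 5 in 5-Aza-CdR and 0 in PBS. The LTR of HERV-Fc1 named HERV-Fc1_LTR2 had 15 reads in the Combination, against 0 in Vc, 11 in 5-Aza-CdR and 0 in PBS and lay at its linear sum. HERV-Fc1_LTR1 had 12 reads in the Combination, against 1 in Vc, 3 in 5-Aza-CdR and 1 in PBS. HERV-Fc2_LTR had 2 reads in the Combination and 0 in the others, and HERV-Fc1_LTR3 had 0 in all 4.

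Outside LTR12 and HERV9, 4 families had a log2 departure whose interval lay above 0. LTR10F, which belongs to the LTRs of HERV-I, was the furthest above its log2 sum of all 143 families. It had 167 reads in the Combination, against 22 in Vc, 81 in 5-Aza-CdR and 48 in PBS, a log2 departure of 1.61 (0.80 to 2.43) and a linear ratio of 2.38. Its copy with the most reads had 22 in the Combination, 0 in Vc, 21 in 5-Aza-CdR and 0 in PBS, and without it the departure was 1.84. HERVIP10FH-int, an internal region of the same group, had 383 reads in the Combination, against 186 in Vc, 220 in 5-Aza-CdR and 212 in PBS, a log2 departure of 0.45 (0.08 to 0.82). The pooled LTR10 and HERVI group stood at 0.15 (-0.10 to 0.39), an interval that held 0. Under size factors the group stood at 0.28 (0.03 to 0.53). Scaled by family reads outside LTR12 and HERV9 it stood at 0.27 (0.02 to 0.52). Whether the group cleared counting error thus depended on the scaling.

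MER74B, an LTR of the ERVL class, and MLT1A, an LTR of the older mammalian MaLR class, were above their sums in a different way. MER74B had 45 reads in the Combination, against 16 in Vc, 30 in 5-Aza-CdR and 38 in PBS, a log2 departure of 1.27 (0.20 to 2.33). MLT1A had 187 reads in the Combination, against 143 in Vc, 120 in 5-Aza-CdR and 204 in PBS, a log2 departure of 0.61 (0.16 to 1.07). Per 10000 reads, MER74B stood at 13.9 in the Combination, against 19.5 in PBS, and MLT1A at 57.7 in the Combination, against 105 in PBS. Both families were thus below PBS in the Combination, and their sums lay lower still. MLT1A without its copy at chr1:158893902-158894106 stood at 0.36 (-0.16 to 0.88), and MER74B without its copy with the most reads stood at 1.09 (-0.08 to 2.25). Neither excess cleared counting error without that 1 copy.

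**Figure D4:**
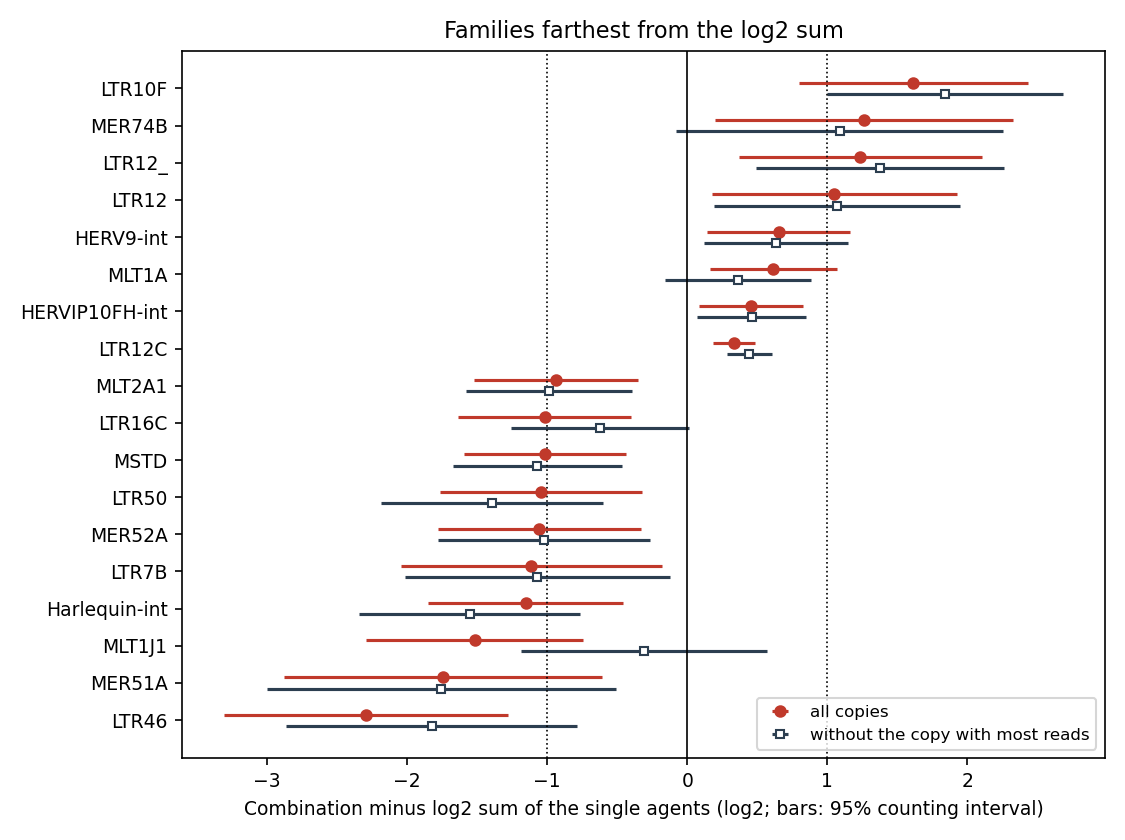
Points give the log2 departure of the Combination from the log2 sum for the 8 highest and 10 lowest families whose counting interval leaves out 0, over all copies (filled) and without the copy with the most reads (open), with 95% counting intervals. MLT1J1 stands at -0.31 without 1 copy, against -1.52 over all copies, and the open intervals of MLT1A, MER74B and LTR16C hold 0.

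Families below their sums came from several classes. LTR46, an ERV1 LTR, lay lowest. It had 31 reads in the Combination, against 35 in Vc, 58 in 5-Aza-CdR and 19 in PBS, a log2 departure of -2.29 (-3.31 to -1.28) and a linear ratio of 0.283. Per 10000 reads that was 9.57 in the Combination, against 18.9 in Vc, 24.7 in 5-Aza-CdR and 9.77 in PBS, so both single agents stood above PBS and the Combination at its level. MER51A, another ERV1 LTR, had 17 reads in the Combination, against 30 in Vc, 32 in 5-Aza-CdR and 24 in PBS, a log2 departure of -1.74 (-2.88 to -0.61). Next came MLT1J1 at -1.52. Other families below the sum were Harlequin-int, an ERV1 internal region, at -1.15 (-1.85 to -0.45) and LTR7B, an LTR of HERVH, at -1.11 (-2.04 to -0.18). Close to them were MER52A at -1.05 (-1.77 to -0.33), LTR50 at -1.04 (-1.76 to -0.32), MSTD, a MaLR LTR, at -1.02 (-1.59 to -0.44) and MLT2A1, an LTR of HERVL, at -0.94 (-1.52 to -0.35). Each of these 6 families had fewer reads per 10000 in the Combination than in Vc and in 5-Aza-CdR. Nearest the 2-fold line above the sum were LTR12 at 1.05, past it, and LTR33A at 0.86, short of it. Nearest it below the sum were MLT2C1 at -1.01, past it, and MLT2A1 at -0.94, short of it.

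Single copies bore on a pair of these deficits, carrying most of that of MLT1J1 and a part of that of LTR16C. MLT1J1, a MaLR LTR, stood at -1.52 (-2.29 to -0.74) with 58 reads in the Combination, against 54 in Vc, 79 in 5-Aza-CdR and 37 in PBS. Its copy at chr12:112277524-112277914, on the minus strand, had 6 reads in the Combination, against 13 in Vc, 40 in 5-Aza-CdR and 1 in PBS, and the family without it stood at -0.31 (-1.18 to 0.57). LTR16C, an LTR of the ERVL class, stood at -1.02 (-1.63 to -0.40), and its copy at chr4:83691801-83692106 had 26 reads in Vc and 0 in the other 3 libraries. Without that copy LTR16C stood at -0.62 (-1.26 to 0.01). LTR46 kept its place without its copy with the most reads, at -1.82 (-2.86 to -0.78).

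Among the larger groups the departures were small. LTR5 and HERVK, which include the youngest human ERVs, stood at -0.27 (-0.49 to -0.05). This deficit was led by LTR5_Hs with 657 reads in the Combination, against 310 in Vc, 588 in 5-Aza-CdR and 274 in PBS, at 0.733 times its linear sum. The 4 families of the group with at least 100 reads had a median log2 departure of 0.15, with 2 of them above 0. The pooled deficit was thus not shared by all of its families. The MST group of MaLR LTRs stood at -0.20 (-0.35 to -0.04) and the MER families at -0.14 (-0.25 to -0.03). Of the families with at least 100 reads, 3 of 8 in MST and 16 of 30 in MER lay above 0. Their median log2 departures were -0.29 in MST and 0.08 in MER, and the linear interval of MER held 0. Intervals of the other groups held 0, with LTR7 and HERVH at -0.02, LTR17 and HERV17 at -0.10, LTR2 and HERVE at 0.07, THE1 at -0.08, MLT1 at -0.08, the HERVL families at -0.09 and LTR48, with few reads, at -0.88. HERVH-int, the ERV family with the second most reads here, lay on its sum, with 2751 reads in the Combination, against 1737 in Vc, 2539 in 5-Aza-CdR and 2324 in PBS and a log2 departure of 0.00 (-0.12 to 0.12). Internal regions together stood at -0.07 and LTRs at 0.02. Directions this close to 0 turned with the scaling. Under size factors LTR7 and HERVH, LTR17 and HERV17, THE1, MLT1, the HERVL families and the internal regions all lay above 0. The highest of them was LTR7 and HERVH at 0.12 (0.0048 to 0.23), with 0 outside its interval. LTR5 and HERVK then stood at -0.14 (-0.36 to 0.08), MST at -0.06 (-0.22 to 0.09) and MER at -0.01 (-0.12 to 0.11), so that none of the 3 deficits left 0 outside its interval.

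Single copies scattered more widely than families, at far fewer reads. Of 703140 annotated copies, 279 had at least 30 reads over the 4 libraries, and 87 of these had fewer than 3 reads in at least 1 library. At 2-fold or more, 42 (15.1%) stood above the log2 sum and 48 (17.2%) below it, and 42 (15.1%) stood above the linear sum and 50 (17.9%) below it. Under size factors these counts were 50 and 40 on the log2 scale, and 46 and 30 on the linear scale. Copies with Combination reads and a linear sum of 0 or below, for which no ratio can be formed, were counted as above the linear sum. Of the 279 copies, 10 had such a sum, and median ratios leave them out. Of the copies at 2-fold or more on the log2 scale, LTR12C gave 21 of the 42 above and 12 of the 48 below, among them 7 of the 8 highest of all. Counting intervals on the log2 scale lay above 0 for 8 copies and below 0 for 9, and those 7 LTR12C copies had intervals that held 0. The median log2 departure was -0.07, with quartiles of -0.72 and 0.53. Of the 69 LTR12C copies among them, 47 were above the linear sum, with a median ratio of 1.17, beside 84 of the other 210 copies, with a median ratio of 0.842. Median log2 departures were closer, at 0.02 for the 69 and -0.07 for the 210. Of the 69, 30 were above both sums and 18 below both. Most LTR12C reads came from the Combination, the deepest library, so a minimum of total reads favours copies high in it. The linear counts therefore do not by themselves set LTR12C copies apart. HERVH-int had 22 copies with at least 30 reads, of which 11 were above both sums and 10 below both, beside 102 above both and 128 below both among all 279 copies.

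Among copies whose counting interval left out 0, the 8 furthest below their log2 sum were higher in Vc, in 5-Aza-CdR or in both than in PBS. Choosing the lowest departures itself favours such copies. After the MLT1J1 copy on chromosome 12, at -6.34 (-9.05 to -3.63), came HUERS-P1-int at chr5:137765896-137765964, with 5 reads in the Combination, against 38 in Vc, 9 in 5-Aza-CdR and 5 in PBS, at -4.13 (-6.12 to -2.14). MER67B at chr5:102235384-102235966 had 3 reads in the Combination, against 4 in Vc, 23 in 5-Aza-CdR and 3 in PBS, at -3.64 (-6.23 to -1.06). The other named copies below the sum were MSTB at -2.84, MLT1G1 at -2.73, MamGypLTR1b at -2.19 and MLT1D on chromosome 2 at -1.83. LTR12D at chr19:8451280-8451985, on the plus strand, was the most deeply read of them, with 104 reads in the Combination, against 28 in Vc, 86 in 5-Aza-CdR and 11 in PBS, at -1.57 (-2.64 to -0.50). On the linear scale MSTB2 on chromosome 5 at -12.7 reads per 10000, MLT1H on chromosome 12 at -11.1 and LOR1-int on chromosome 3 at -9.65 were also among the 8 lowest.

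Among copies above their sums, the HERVH-int copy at chr1:68852826-68855367, on the plus strand, had the largest linear departure. It had 176 reads in the Combination, against 109 in Vc, 97 in 5-Aza-CdR and 169 in PBS, and stood 41.0 per 10000 above the linear sum (20.4 to 61.7) and 0.95 above the log2 sum (0.45 to 1.45). As with MLT1A, its level in the Combination was below that in PBS, with 54.3 reads per 10000 in the Combination, against 86.9 in PBS. A neighbouring HERVH-int copy at chr1:68855989-68856651 had 19 reads in the Combination, against 5 in Vc, 12 in 5-Aza-CdR and 18 in PBS, at 1.86 (0.14 to 3.57). The MLT1A copy at chr1:158893902-158894106 had 53 reads in the Combination, against 27 in Vc, 29 in 5-Aza-CdR and 60 in PBS, at 1.46 (0.54 to 2.38). HERVH-int at chr13:109917870-109921795 differed from these, with 58 reads in the Combination, against 10 in Vc, 40 in 5-Aza-CdR and 26 in PBS, at 1.33 (0.15 to 2.51). The rest were LTR13 on chromosome 8 at 2.20, HERVL40-int on chromosome 20 at 1.95, HERVL-int on chromosome 7 at 1.62 and MLT1D on chromosome 10 at 1.30. The 8 largest linear departures also held LTR12C at chr14:24053109-24054656, with 9.13 per 10000, LTR12C at chr19:9431893-9433519, with 8.51, and HERVH-int at chr19:15940452-15945535, with 8.68.

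Ratios between treatments differed between the sets by nearly as much as, or more than, the departures differed from 0. The log2 ratio of Combination to 5-Aza-CdR differed by a median of 0.28 over 142 families, and 8 (5.63%) differed by 2-fold or more. The ratio of Combination to PBS differed by a median of 0.72 and that of 5-Aza-CdR to PBS by 0.74, with 45 and 49 families at 2-fold or more. The departures from the log2 sum in set 2 had a median size of 0.30, and 15 of 143 families (10.5%) reached 2-fold. Set 1 has no Vc library, so the departure itself could not be formed a second time.

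The joint fit is the one test with an error between libraries. It took all 7 libraries with treatment and set as terms, in edgeR's quasi-likelihood test of Combination minus 5-Aza-CdR minus Vc plus PBS on the log2 scale, and assumed that the single Vc library varied like the others. After Benjamini-Hochberg adjustment at 0.05, 0 of 353 families (0.0%) were above the log2 sum and 0 (0.0%) below it, and 8 had an unadjusted p under 0.05. DESeq2 called 0 families, with 1 at an unadjusted p under 0.05. Of 409 copies with at least 30 reads over the 7 libraries, edgeR called 0 above (0.0%) and 0 below (0.0%), with 4 at an unadjusted p under 0.05, and DESeq2 called 0, with 2. This outcome rested on the PBS libraries. Without the PBS library of set 2, edgeR called 15 families above and 47 below, and without that of set 1 it called 1 above and 3 below.

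In the joint fit LTR12C stood at -0.01 (-0.80 to 0.79), an interval that held both 0 and its departure in set 2 alone. It stood at 0.21 with trimmed-mean normalisation. Its value lay between -1.01 and 0.42 when any 1 library other than Vc was left out, the lowest without the PBS library of set 2. The single Vc library was kept in every fit. LTR12 was fitted at 0.59 with an interval that held 0, HERV9-int at 0.94 (-0.26 to 2.14) and LTR10F at 1.46 (-0.23 to 3.15), which stood at -0.27 without the PBS library of set 2. Below the sum, MLT1J1 was fitted at -1.57 (-3.01 to -0.12) and MER52A at -1.39 (-2.62 to -0.17), without passing adjustment. The lowest p belonged to LTR16D1, at -2.44 with an adjusted p of 0.973, followed by LTR46-int at -4.54, LTR25 at 2.17, LTR86B1 and MER52A. Over all 353 families the median was -0.21, with 137 above 0. Over the 104 LTR12C copies fitted it was 0.31, with 56 above 0, beside 0.11 over all 409 copies, with 219 above 0. The copies with the lowest p were the MLT1J1 copy on chromosome 12, at -7.03, and an LTR48B copy at chr6:27106003-27106594, at -8.34, both with an adjusted p of 0.171.

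**Figure D5:**
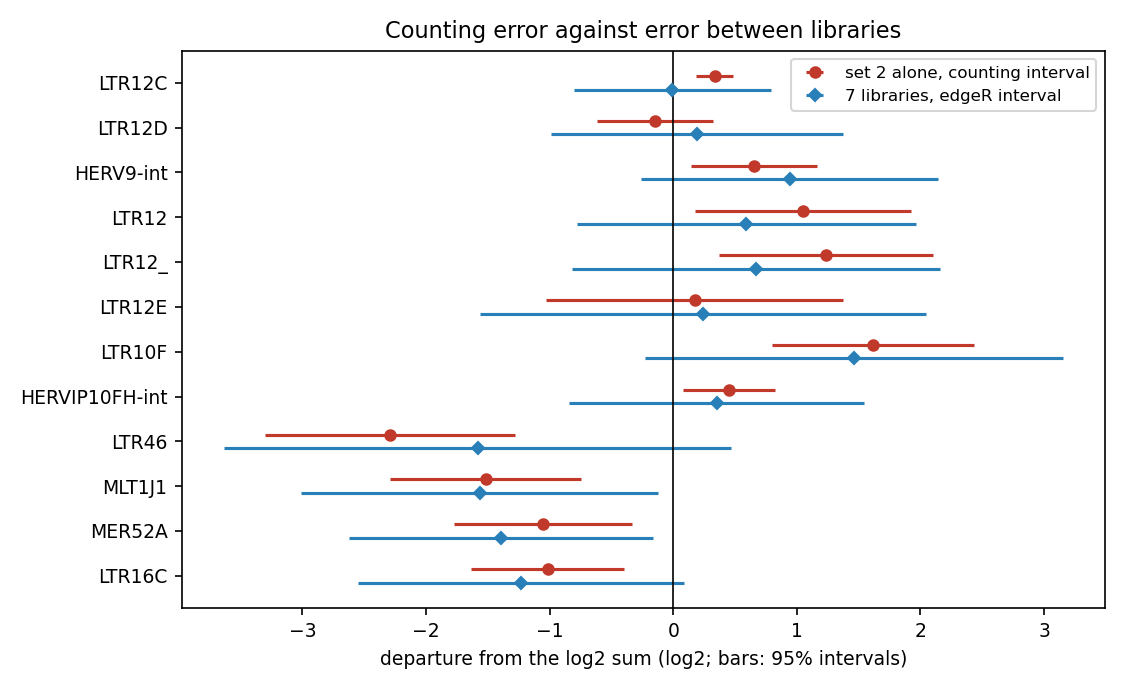
Points give the log2 departure of the Combination from the log2 sum for 12 families in set 2 alone, with 95% counting intervals, and in the fit of 7 libraries, with 95% edgeR intervals. The fitted intervals are wider for all 12, and those of MLT1J1 and MER52A alone leave out 0.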

How the data were processed

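The authors deposited raw read counts per ERV and LTR family and per annotated copy, in 2 workbooks, per the file headers. Per the submitters' processing notes, set 2 was processed with Bowtie2 and Picard and the build was hg19. Coordinates are hg19 and 1-based. The sources used here do not give the counting tool or say how marked duplicates and multiply mapped reads were handled, and genes near the copies were not analysed here. A named copy's count may therefore include reads of near-identical copies.

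Levels, both sums and their counting intervals (delta method for the log2 sum, Poisson for the linear sum) were computed in Python 3.11.15, with library sizes equal to the total family reads. Copy sheets gave the same totals, except for 3 more PBS reads of MLT1A. The joint fit used edgeR 4.0.16 in R 4.3.3 with the same library sizes, 2 residual degrees of freedom and coefficients of biological variation of 0.320 for families and 0.488 for copies, and DESeq2 1.42.0 as an alternative.

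The members, groups and tests were chosen with earlier results of these data known. Families named are all of LTR12, HERV9 and HERV-Fc, up to 10 highest and lowest log2 departures whose interval leaves out 0, and the 5 lowest p of the joint fit. Copies named are the 8 highest and lowest log2 departures among those whose interval leaves out 0, and the 8 highest and lowest linear departures. Leaving out the copy with the most reads was added after seeing the data.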

Additional observations from a re-analysis of the deposited data

How the results depend on the processing

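The counts of families and copies past the threshold depend on the minimum number of reads. Those with Combination reads but no positive linear sum were again counted as above the linear sum. With at least 40 reads, 20 families stood 2-fold above and 25 below the log2 sum, and 35 above and 24 below the linear sum. With no minimum these were 69 and 96, and 100 and 102. Copies with at least 60 reads gave 13 above and 9 below the log2 sum, with a median of 0.10, and 14 above and 12 below the linear sum. Copies with at least 15 reads gave 199 and 192, and 218 and 173. At 1.5-fold, 11 families lay above and 21 below the log2 sum and 30 below the linear sum, and 67 copies lay above and 86 below the log2 sum and 73 above the linear sum.

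Scaling by size factors, or by family reads outside LTR12 and HERV9, gave 5 families below either sum in both cases, with family medians of 0.041 and 0.029. For copies the medians were 0.067 and 0.055, the median ratios to the linear sum 1.07 and 1.05, and 30 and 32 copies lay below the linear sum. LTR12 and HERV9 stood further above their sums, at 0.48 under size factors and at 968 and 1175 per 10000 under the 2 scalings, and HERV-Fc at 46.5 without LTR12 and HERV9 reads in the total. That scaling counts per 10000 of a smaller total, which alone enlarges linear departures. LTR7 and HERVH stood at 0.12 (0.0048 to 0.23) and 0.11 (-0.0073 to 0.22). THE1 stood at 0.054 under size factors, and at 43.8 and 43.5 per 10000. MLT1 stood at 0.054 and 0.042, and at 68.2 and 56.1 per 10000. The HERVL families stood at 11.4 per 10000 under size factors, and MER at -0.0058 and -0.018. Internal regions stood at 0.062 and 0.050, and at 113 and 117 per 10000, and LTRs at 0.16 and 0.14, and at 913 and 1057 per 10000.

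In the joint fit, leaving out 1 library gave between 0 and 15 families above and between 0 and 47 below, and between 0 and 1 copies above and between 0 and 2 below. The higher counts came without a PBS library. The single Vc library was kept in all of these fits. Some named families changed direction in them, and none of the named families had passed adjustment with all 7 libraries. Others kept their direction in every alternative setting of the fit. Among these were HERV9-int (0.64 to 1.44), MER52A (-2.31 to -0.31) and LTR16C (-2.33 to -0.62). Over the fits that left out 1 library, LTR46 ranged between -2.31 and 0.14, MER51A between -1.71 and 0.033, LTR7B between -1.09 and 0.10 and MLT2A1 between -0.90 and 0.25. Among families above the sum, LTR10F ranged between -0.27 and 2.18, HERVIP10FH-int between -0.34 and 0.74 and LTR25 between -0.65 and 4.92. Of the LTR12 families, LTR12C ranged between -1.01 and 0.42, LTR12_ between -0.26 and 1.24, LTR12D between -0.11 and 0.67, LTR12E between -0.55 and 0.91 and LTR12F between -0.81 and 0.70. LTR12C stood at 0.21 with trimmed-mean normalisation and 0.22 in DESeq2. With no term for the set, LTR7B stood at 0.53, HERVIP10FH-int at -0.30 and LTR12D at -0.029. The cause of these changes was not tested. No paired analysis was possible because the labels number no replicates. The set was a term of the fit, and without it edgeR called 0 families and 0 copies, with 1 of each at an unadjusted p under 0.05. Of the 279 copies, 87 had under 3 reads in a library.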
